A study of Homo sapiens with 16 samples.

Results

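The genes described here are LIN28B, the let-7 host gene MIRLET7BHG, HMGA2 and the IGF2BP genes IGF2BP1, IGF2BP2 and IGF2BP3, in 2 Ewing sarcoma cell lines. Each gene was given a window of the hg19 genome, and every deposited peak or domain overlapping a window was taken. No gene start was placed in hg19, so what is said of a gene's acetylation or peaks is said of its window. The windows were chr6:104850000-105550000 for LIN28B, chr22:46380000-46530000 for MIRLET7BHG, chr12:66200000-66380000 for HMGA2, chr17:47040000-47150000 for IGF2BP1, chr3:185340000-185570000 for IGF2BP2 and chr7:23330000-23530000 for IGF2BP3. Together they span 1.57 Mb and hold 148 of the 114213 intervals of all lists. The genes were chosen by a rule written with the H3K27ac, SMC1 and BORIS values of these lists in view, so all counts, ranks and fold values below are descriptions without a test.

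TC-32 is an established Ewing sarcoma line that the labels place at diagnosis, and TC-71 is one that they place after chemotherapy. Each was grown in RPMI-1640 medium, with no treatment named, and profiled by chromatin immunoprecipitation with sequencing for H3K27ac, SMC1 and BORIS and as input chromatin. There were 16 samples in 8 groups, 2 per line and antibody or input, and 1 deposited list per line and antibody, called against the input of that line. The 2 samples of a group share that list, so values carry no error between replicates, the lines could not be compared by a test, and depth is unknown. Each condition is 1 line, so line and phase of therapy cannot be told apart. The lists hold no expression, so the labelled cell type was not checked against marker genes.

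LIN28B is an RNA-binding protein of embryonic and fetal cells. It binds let-7 precursors and blocks their maturation, while mature let-7 represses LIN28B, HMGA2 and the IGF2BP messenger RNAs through sites in them. High LIN28B with low let-7 is the state of many fetal tissues and of some childhood tumours, and the targets of let-7 are then released together. H3K27ac, acetylation of histone H3 at lysine 27, marks active promoters and enhancers. SMC1 belongs to the cohesin ring, which holds chromatin loops. BORIS (CTCFL) is a germ line paralog of the insulator protein CTCF.

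MIRLET7BHG is the host gene of 4 microRNA genes in the RefSeq table (GRCh38.p14), 2 of them let-7 genes: MIR3619, MIRLET7A3, MIR4763 and MIRLET7B. Their mature sequences are shown because the strongest acetylation among the 6 genes lay in this window. Capitals mark the seed, bases 2 to 8 from the 5′ end, which pairs with target messenger RNAs.
hsa-let-7a-5p: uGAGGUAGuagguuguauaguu
hsa-let-7b-5p: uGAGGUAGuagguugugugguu
hsa-miR-3619-5p: uCAGCAGGcaggcuggugcagc
hsa-miR-4763-3p: aGGCAGGGgcuggugcugggcggg

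Both let-7 products of the host carry the same seed, and their 22 bases differ at 2 positions, A17G and A19G, counted from the 5′ end with the let-7a base first. All 9 distinct 5p sequences of the 12 let-7 family genes in the table share this 1 seed. The 2 other microRNAs of the host carry other seeds. Members of the family from other loci are shown for comparison, with the seed in capitals.
hsa-let-7d-5p: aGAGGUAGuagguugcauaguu
hsa-let-7g-5p: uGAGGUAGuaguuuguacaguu
hsa-miR-98-5p: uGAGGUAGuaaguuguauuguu

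LIN28 proteins are known to contact a GGAG motif in the loop of let-7 precursors. The letters GGAG, on the RNA strand only, were searched between the mature arms, and they occur there in 8 of the 11 let-7 precursors with both arms in the table. Over all 739 human precursors with both arms listed, 60 (8.12%) hold it. Both let-7 precursors of MIRLET7BHG are among the 3 family members without these letters between the arms, with MIR98 the other. The host's 2 precursors are set beside that of let-7g, where capitals mark GGAG.
MIRLET7A3 precursor: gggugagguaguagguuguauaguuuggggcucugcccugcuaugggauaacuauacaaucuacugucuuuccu
MIRLET7B precursor: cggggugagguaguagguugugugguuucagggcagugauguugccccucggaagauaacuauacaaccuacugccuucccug
MIRLET7G precursor: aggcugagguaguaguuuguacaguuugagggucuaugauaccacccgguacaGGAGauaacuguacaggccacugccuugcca

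Of 36355 H3K27ac domains listed in TC-32 the 6 windows held 35, and of 26334 in TC-71 they held 59. They held 34 of 32720 SMC1 peaks in TC-32 and 20 of 18264 in TC-71. With lists of equal length, the TC-32 list kept only as far by −log10 p as that of TC-71 is long, the counts were 17 against 20. This alternative was chosen after seeing the data, here and wherever it is given for counts. No window held a BORIS peak (0 of 6 listed in TC-32 and 0 of 534 in TC-71), in lists with 0.00198 and 0.176 BORIS peaks per Mb, too sparse for windows of this size to be told apart from the rest of the genome. Domains covered 192 kb, or 12.3% of the windows, in TC-32 and 166 kb, or 10.55%, in TC-71, where the whole lists cover 2.15% and 1.41% of the genome. The windows were picked for such domains, so nothing is read from that excess. TC-71 thus had more domains over fewer bases, and 118 kb was acetylated in both lines. For reading the overlaps of single genes, 42.5% of all acetylated bases of TC-32 and 65.1% of those of TC-71 are acetylated in the other line. A domain of the other line overlaps 47.1% of the TC-32 domains and 67.3% of the TC-71 domains, and an SMC1 peak of the other line overlaps 50.3% of the TC-32 and 90.3% of the TC-71 SMC1 peaks. A larger share in TC-71, whose lists are shorter, is thus seen over the whole genome.

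**Figure D1:**
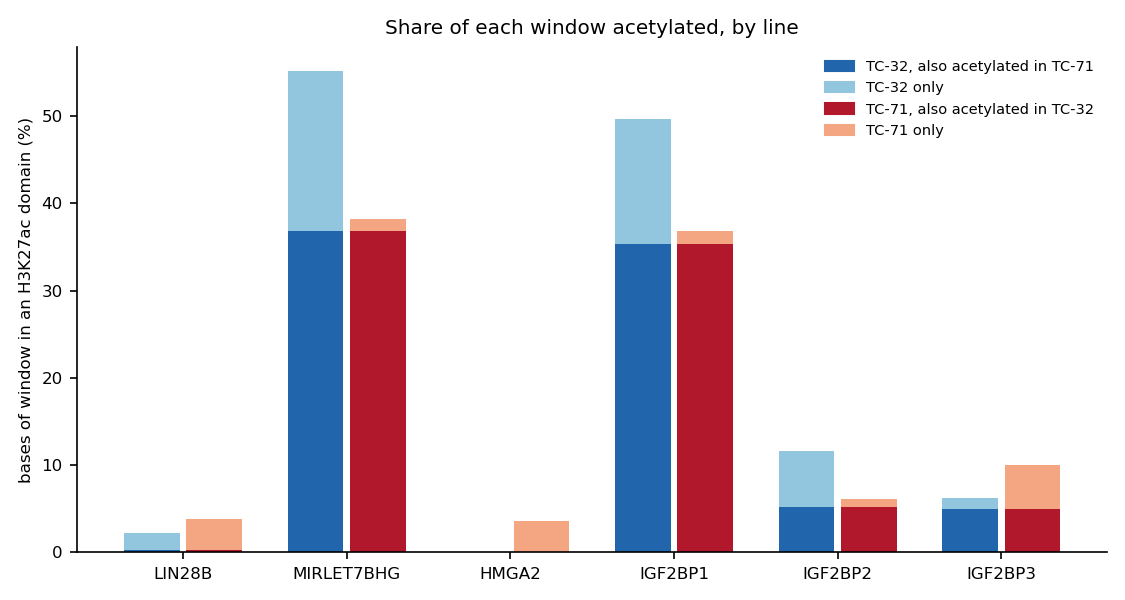
Bars give the percent of bases in each window that lie in an H3K27ac domain (vertical axis, %), for TC-32 in blue and TC-71 in red, with the dark part acetylated in both lines. MIRLET7BHG (55.1% and 38.2%) and IGF2BP1 (49.7% and 36.8%) stand far above the other genes in both lines, and HMGA2 has no bar in TC-32.

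MIRLET7BHG, the source of let-7a-3 and let-7b, had the window with the broadest acetylation of the 6. In TC-32, 8 domains covered 82.7 kb (55.1%) of its 150 kb window, and in TC-71, 11 domains covered 57.3 kb (38.2%). The 55.3 kb in common made up 66.8% of the TC-32 bases and 96.5% of the TC-71 bases, against 42.5% and 65.1% over the whole lists. The TC-71 domains lay almost wholly within those of TC-32.

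The widest and highest domain of the let-7 host in TC-32 was chr22:46430369-46491114, 60.7 kb wide with an authors' fold enrichment of 9.59. Its −log10 q of 54.6 equalled or exceeded that of 99.1% of the TC-32 domains, a figure called its percentile from here on. In TC-71 the same place was split: chr22:46448249-46486706 was 38.5 kb wide, with fold 8.17 at percentile 97.3. Smaller TC-71 domains at chr22:46430378-46433075 (fold 5.21), chr22:46434694-46435753 (fold 3.48) and chr22:46436584-46442474 (fold 5.75) filled part of the left end of the TC-32 domain.

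Domains within about 13 kb of each other were joined into clusters and ranked within each line by the sum of domain length times fold, as is usual for super-enhancers. With rank and signal both scaled to their maximum, clusters past the place where this curve reaches slope 1 are called top clusters, 901 of 22370 in TC-32 and 670 of 16831 in TC-71. The MIRLET7BHG cluster, chr22:46400272-46506685 and 106 kb long, ranked 1 in TC-32, at 13.0 times the signal of the threshold. In TC-71 it ran from 46430378 to 46518815 and ranked 4, at 8.17 times the threshold. Ranked by covered length alone, it stood at 5 in the TC-32 list and at 13 in that of TC-71, still a top cluster in both. It was therefore among the strongest acetylated clusters of each line.

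In this window 4 of 8 TC-32 domains and 8 of 11 TC-71 domains overlapped the other line. That was close to the 47.1% and 67.3% of the whole lists. The line-only domains numbered 4 in TC-32 and 3 in TC-71 and covered 3.03 kb and 2.01 kb. The highest in TC-32, chr22:46423111-46423660, had fold 4.80 at percentile 67.2, above the median fold of its list (3.53), and the highest in TC-71, chr22:46511691-46511915, had fold 3.45 at percentile 42.1. Beside these, TC-32 listed chr22:46402506-46405149 at percentile 97.8 (fold 8.89), which overlapped a 505-base TC-71 domain at percentile 30.1 (fold 3.04).

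SMC1 at the let-7 host was listed at 11 sites in TC-32 and 6 in TC-71. Where 90.3% of all TC-71 SMC1 peaks overlap a TC-32 peak, each of these 6 did, with summits 1 to 100 bp apart. The strongest in both lines, chr22:46518272-46518688, lay right of the TC-32 cluster, with fold 24.7 at percentile 98.8 in TC-32 and fold 9.87 at percentile 94.5 in TC-71. In TC-71 alone a domain, chr22:46517922-46518815, covered this site and carried the cluster up to it. On the left, chr22:46402219-46402735 was also in both lists, with fold 11.6 at percentile 88.5 in TC-32 and fold 6.45 at percentile 79.3 in TC-71. So was chr22:46390763-46391074, with fold 11.6 at percentile 78.9 in TC-32 and fold 5.14 at percentile 28.7 in TC-71. The 5 SMC1 peaks listed in TC-32 only were no higher than percentile 51.8, and 3 of them fell inside the 60.7 kb domain. With lists of equal length, the window held 4 SMC1 peaks in TC-32 against 6 in TC-71. Why the counts differ was not tested.

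**Figure D2:**
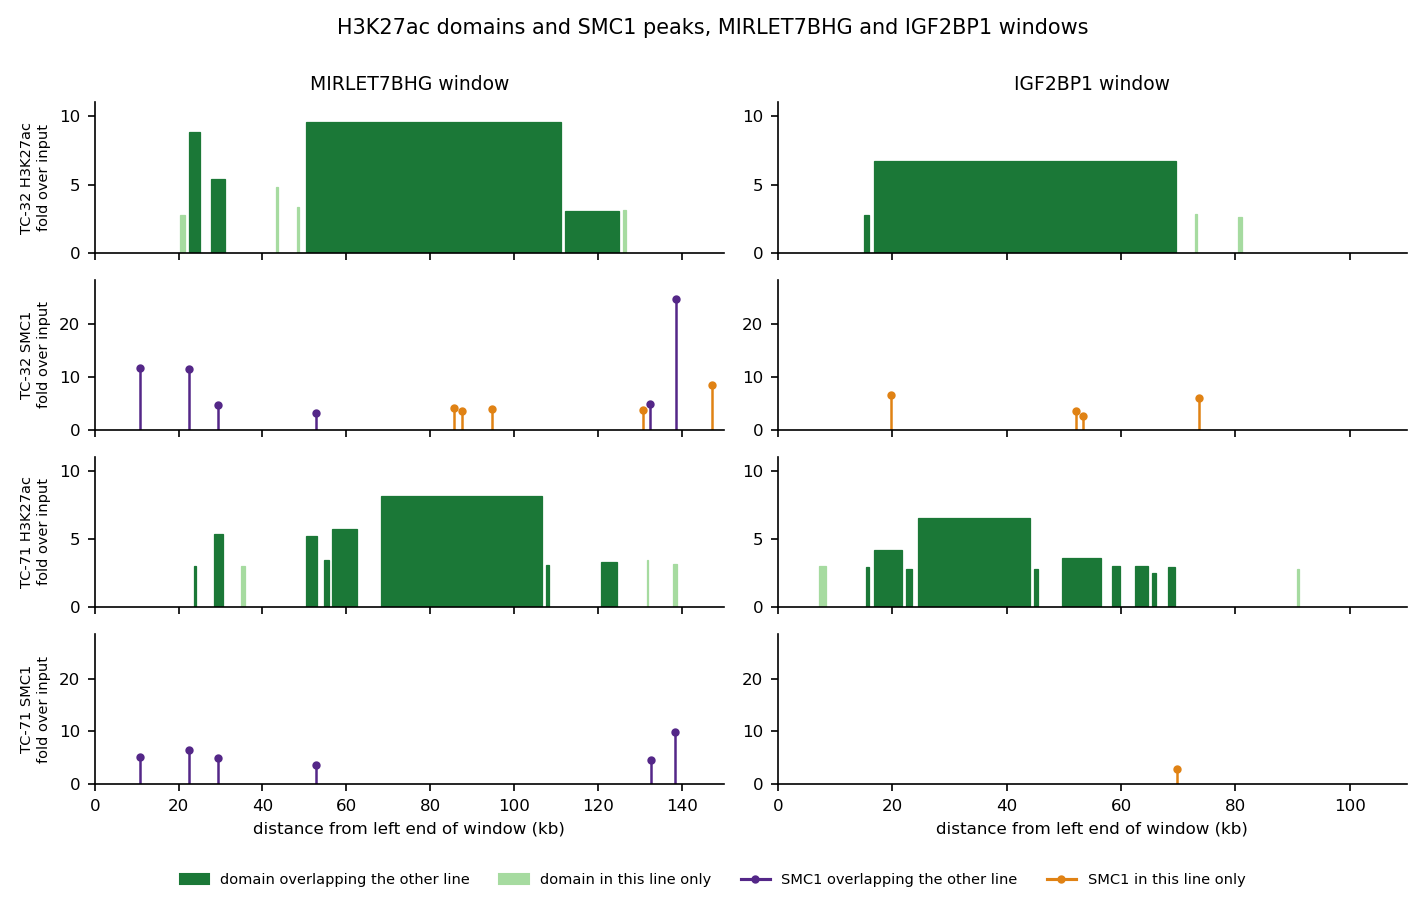
Maps of the MIRLET7BHG and IGF2BP1 windows, with distance from the left window end (kb) across and the authors' fold over input upward, for H3K27ac domains (green blocks to scale) and SMC1 peaks (stems) of each line. Dark green and purple mark overlap with the other line, and a single wide TC-32 block faces several TC-71 blocks at both genes.

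LIN28B, the inhibitor of let-7 maturation, had few acetylated bases in common between the lines. Its 700 kb window, which reaches well past the gene and lies in bands 6q16.3 to 6q21, held 10 domains over 15.8 kb (2.25%) in TC-32. In TC-71 it held 19 domains over 27.1 kb (3.88%). Only 3 domains of each line overlapped, with 1.70 kb in common, 10.8% of the TC-32 bases and 6.26% of the TC-71 bases. The shares over the whole lists were 42.5% and 65.1% of bases, and 47.1% and 67.3% of domains. With lists of equal length, an alternative chosen after seeing the data, the domain counts were 7 in TC-32 and 19 in TC-71. Why the counts differ was not tested. At a −log10 q of at least 5 the counts were 3 in TC-32 and 7 in TC-71.

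The 7 domains of LIN28B listed in TC-32 only all lay in one stretch at the right of the window, chr6:105490129-105521350. They formed a cluster of 31.2 kb that ranked 1295 of 22370, at 0.811 of the threshold and so below the top clusters. Ranked by covered length it stood at 858 and passed into the top clusters, and with only domains of −log10 q of at least 5 it stood at 4021. The strongest of the 7 was chr6:105498677-105501214, with fold 5.29 at percentile 74.4. TC-71 had no domain in this stretch.

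The 16 domains listed in TC-71 only spread over the rest of the LIN28B window, from 104867892 to 105407538. The highest, chr6:104872400-104874099, had fold 7.34 at percentile 85.7, and its neighbour chr6:104867892-104871639 had fold 7.34 at percentile 84.9. These 2 and a weaker one made the best cluster, chr6:104867892-104876026, which ranked 771 of 16831, at 0.926 of the threshold. With stitching at 5 kb it ranked 618 and became a top cluster. The widest TC-71 domain, chr6:104930062-104934148, measured 4.09 kb with fold 4.32 at percentile 50.6. One more reached the upper quartile of its list, chr6:105404207-105407538, with fold 5.94 at percentile 76.1.

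Among the shared domains, chr6:105306555-105308101 was the highest of the window in TC-32, with fold 6.01 at percentile 84.5. Its TC-71 counterpart, chr6:105307140-105307781, had fold 4.99 at percentile 73.5. In the gene table (GRCh38.p14) LIN28B lies between HACE1 and POPDC1 and overlaps LIN28B-AS1. Gene starts were not placed in hg19, so which domain belongs to which of these genes was not determined.

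SMC1 at LIN28B was listed at 10 sites in TC-32 and 7 in TC-71, and 6 sites were in both with summits 5 to 41 bp apart. These shares, 6 of 10 and 6 of 7, were close to the 50.3% and 90.3% of the whole SMC1 lists. With lists of equal length both lines had 7. The strongest, chr6:105389351-105389683, had fold 17.5 at percentile 90.9 in TC-32 and fold 7.88 at percentile 80.4 in TC-71. The second was chr6:105525755-105526059 in TC-32 (fold 11.7, percentile 70.1), with fold 6.16 at percentile 25.5 in TC-71. Another shared site, chr6:105130969-105131191, had fold 9.13 at percentile 68.4 in TC-32 and fold 9.09 at percentile 77.9 in TC-71. The highest SMC1 peak of TC-32 alone was chr6:105219150-105219446 (fold 8.51, percentile 51.8), and the only one of TC-71 alone was chr6:104872269-104872496 (fold 4.67, percentile 21.2). Over the whole SMC1 lists, 25.9% of the TC-32 and 13.6% of the TC-71 peaks overlapped a domain of their own line. At LIN28B 0 of 10 did in TC-32 and 3 of 7 in TC-71, counts too small to be read as a difference. Of these 3, the site at 105389374 was the strongest by −log10 q in TC-71. It lay in a weak TC-71 domain, chr6:105389070-105389683, with fold 2.89 at percentile 12.3.

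**Figure D3:**
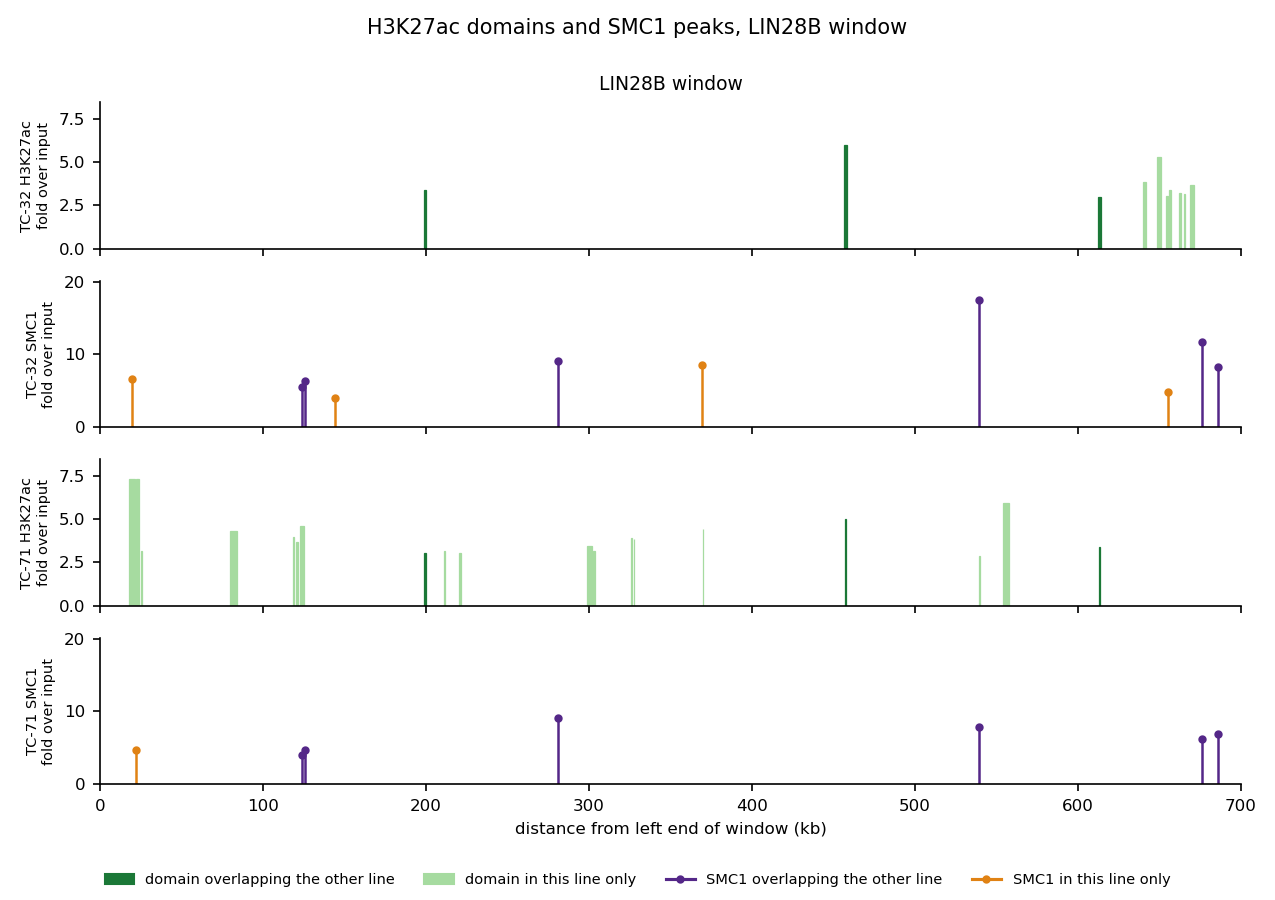
Map of the LIN28B window, with distance from the left window end (kb) across and the authors' fold over input upward, for H3K27ac domains (green, to scale) and SMC1 peaks (stems) of each line. Light green domains, in 1 line only, sit together at the right in TC-32 and are spread over the window in TC-71, while 6 purple SMC1 stems stand at the same places in both.

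HMGA2 codes for an architectural chromatin protein of fetal growth and is a classical let-7 target. Its 180 kb window held no H3K27ac domain in TC-32 and 3 in TC-71, over 6.52 kb (3.62%). The widest and highest was chr12:66216268-66222021, 5.75 kb long, with fold 6.92 at percentile 91.3. As a cluster it ranked 909 of 16831, at 0.847 of the threshold, and with stitching at 5 kb it ranked 746 and became a top cluster. The other 2 were under 0.5 kb wide, and at a −log10 q of at least 5 the count was 0 against 1.

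SMC1 at HMGA2 was shared at 1 site near the right end of the window. Chr12:66377471-66377734 had fold 17.7 at percentile 89.7 in TC-32 and fold 8.84 at percentile 71.2 in TC-71, with summits 21 bp apart. TC-32 also listed chr12:66350358-66350551, with fold 3.94 at percentile 13.6. All of these lay outside any domain. The 3 TC-71 domains were 57.9 kb to 156 kb from the nearest SMC1 summit of that line, the leading one the farthest.

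IGF2BP1, an RNA-binding protein of fetal cells that stabilises target messenger RNAs, came next after the let-7 host in acetylation. In TC-32, 4 domains covered 54.7 kb (49.7%) of its 110 kb window, and in TC-71, 12 domains covered 40.4 kb (36.8%). The 38.9 kb in common made up 71.2% of the TC-32 bases and 96.2% of the TC-71 bases, against 42.5% and 65.1% over the whole lists. One TC-32 domain, chr17:47056796-47109554, accounted for 52.8 kb, with fold 6.76 at percentile 90.7. The widest of TC-71, chr17:47064428-47084035, was 19.6 kb with fold 6.51 at percentile 96.7. Over the length of the TC-32 domain TC-71 had 9 separate domains, all covered by it.

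The IGF2BP1 cluster ranked 8 in TC-32 (chr17:47055043-47121131, 6.98 times the threshold) and 29 in TC-71 (chr17:47047255-47109441, 4.20 times). It was a top cluster under each alternative tried, at rank 6 to 22 in TC-32 and 16 to 28 in TC-71. The highest domains in 1 line only were chr17:47112885-47113282 in TC-32 (fold 2.81, percentile 26.1) and chr17:47047255-47048340 in TC-71 (fold 2.97, percentile 40.1). As listed, the TC-71 domains thus had more breaks and lay mostly within those of TC-32, which also covered further bases. Depth is unknown, and the reason for the breaks was not tested.

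IGF2BP1 was the 1 gene with SMC1 peaks in both lines and none in common. Over the whole lists, 50.3% of the TC-32 and 90.3% of the TC-71 SMC1 peaks are shared. The counts here, 4 and 1, are too small to be read as a difference from that. TC-32 listed 4, and 3 of them lay inside the 52.8 kb domain. The strongest by −log10 q was chr17:47113470-47113664 (fold 5.94, percentile 49.2), followed by chr17:47059613-47059861 (fold 6.50, percentile 46.2). The 1 peak of TC-71, chr17:47109634-47109808, had fold 2.91 at percentile 16.7, and its summit lay 0.269 kb right of that line's cluster. With lists of equal length the counts were 2 and 1.

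IGF2BP3, a further fetal RNA-binding protein of this family that is frequently re-expressed in tumours, was acetylated mainly near the right end of its 200 kb window. TC-32 had 5 domains over 12.48 kb (6.24%) and TC-71 had 6 over 20.0 kb (10.0%), with 9.93 kb in common. That was 79.6% of the TC-32 bases and 49.5% of the TC-71 bases, against 42.5% and 65.1% over the whole lists. The leading domain was chr7:23506940-23514559 in TC-32, 7.62 kb long with fold 7.69 at percentile 93.7. In TC-71 it was chr7:23506983-23518340, 11.4 kb long with fold 8.43 at percentile 96.6. IGF2BP3 and LIN28B were thus, with HMGA2, the genes with more acetylated bases in TC-71.

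The IGF2BP3 cluster ranked 701 in TC-32, at 1.13 times the threshold, and 103 in TC-71, at 2.44 times (chr7:23503188-23531709). Ranked by covered length the TC-32 cluster fell to 1591 and was no longer a top cluster. The 1 domain of TC-32 alone, chr7:23384062-23384800, was weak (fold 2.79, percentile 3.39). The higher of 2 in TC-71 alone, chr7:23469474-23472822, had fold 3.90 at percentile 47.4. This domain lay on the SMC1 site shared by both lines, chr7:23469962-23470211, with fold 8.90 at percentile 57.0 in TC-32 and fold 8.52 at percentile 63.7 in TC-71. TC-32 listed a further SMC1 peak, chr7:23509344-23509577 (fold 5.002, percentile 23.6), inside its leading domain.

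IGF2BP2, the member of the family that is also expressed in adult tissues, had 8 domains in each line. They covered 26.7 kb (11.6%) of the 230 kb window in TC-32 and 14.2 kb (6.17%) in TC-71, with 11.9 kb in common. That was 44.7% of the TC-32 bases and 84.0% of the TC-71 bases, against 42.5% and 65.1% over the whole lists. The leading domain was nearly the same interval in both, chr3:185537787-185544215 in TC-32 (fold 5.50, percentile 78.4) and chr3:185537588-185544079 in TC-71 (fold 7.57, percentile 91.8). Its cluster ranked 774 in TC-32, at 1.08 times the threshold, and 417 in TC-71, at 1.26 times. With domains of −log10 q of at least 5 it ranked 1332 in TC-32 and was no longer a top cluster.

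A second IGF2BP2 cluster of TC-32, chr3:185434849-185466020, ranked 915, at 0.996 of the threshold. TC-71 had only 2 shared domains in that stretch, the larger chr3:185462316-185465473 with fold 3.80 at percentile 52.4. The highest domains in 1 line only were chr3:185554606-185555167 in TC-32 (fold 4.24, percentile 58.4) and chr3:185420779-185421003 in TC-71 (fold 3.70, percentile 44.9). SMC1 was listed at 5 sites in TC-32 and 4 in TC-71. Where 90.3% of all TC-71 SMC1 peaks are shared, all 4 of these were, with summits 7 to 42 bp apart. The strongest, chr3:185395093-185395358, had fold 7.45 at percentile 73.8 in TC-32 and fold 10.2 at percentile 79.0 in TC-71. The 1 peak of TC-32 alone, chr3:185542986-185543160 (fold 4.54, percentile 18.4), was the only one in a domain. With lists of equal length TC-32 had 2 SMC1 peaks against 4, while IGF2BP3 and HMGA2 had 1 in each line.

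**Figure D4:**
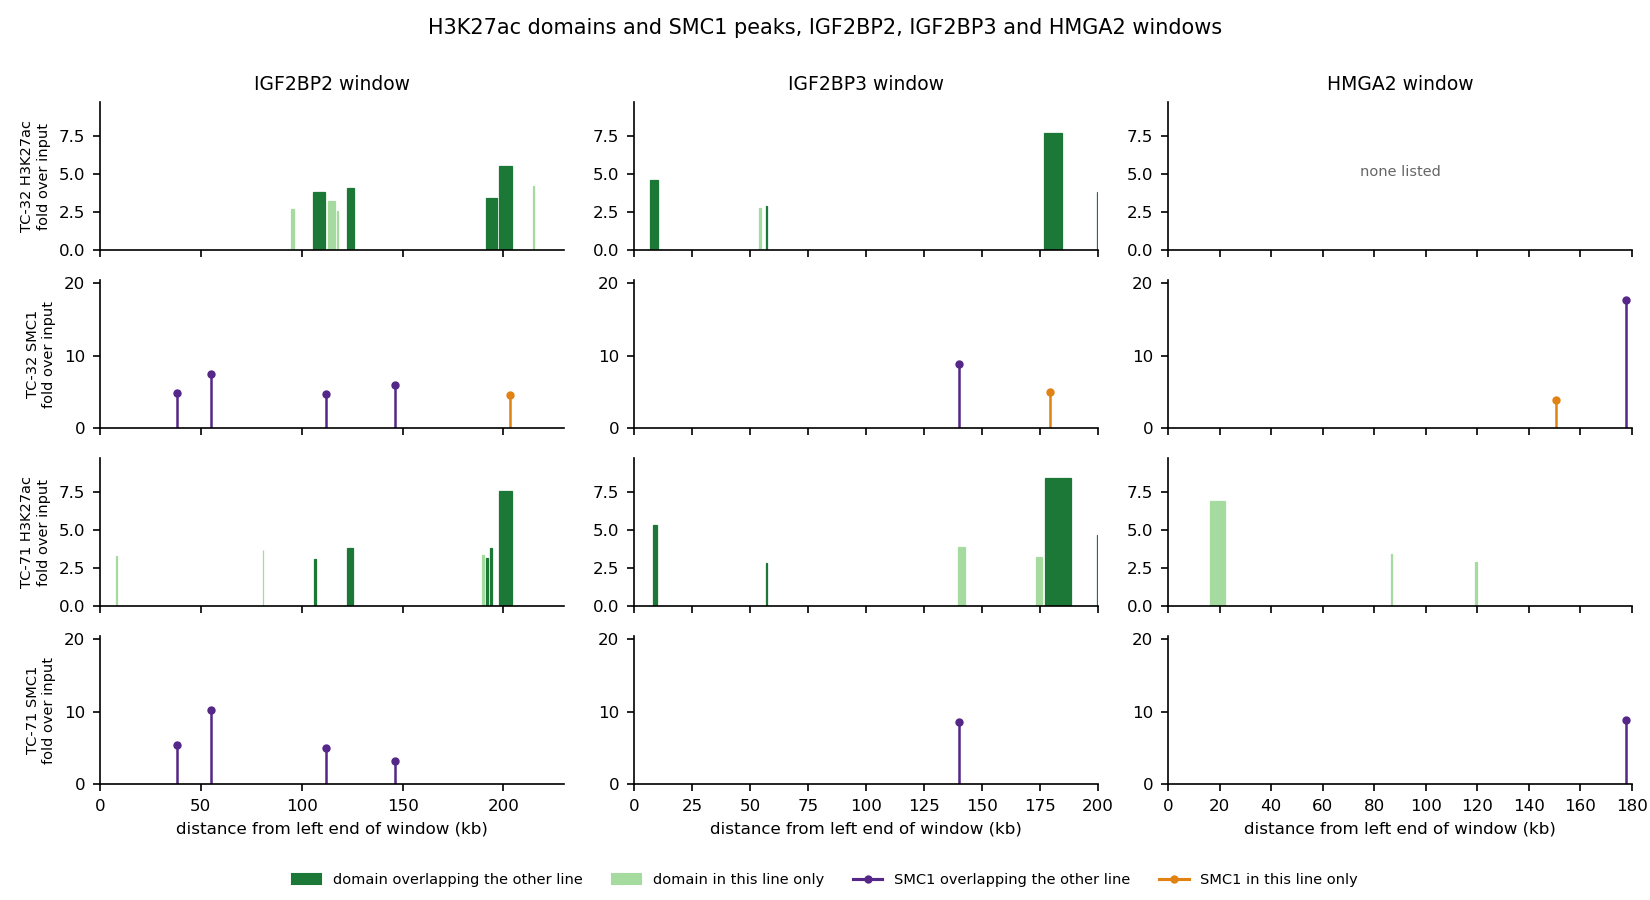
Maps of the IGF2BP2, IGF2BP3 and HMGA2 windows, with distance from the left window end (kb) across and the authors' fold over input upward, for H3K27ac domains (green, to scale) and SMC1 peaks (stems) of each line. The tallest domain sits at the same place in both lines at IGF2BP2 and IGF2BP3, and the HMGA2 window has domains in TC-71 only.

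**Figure D5:**
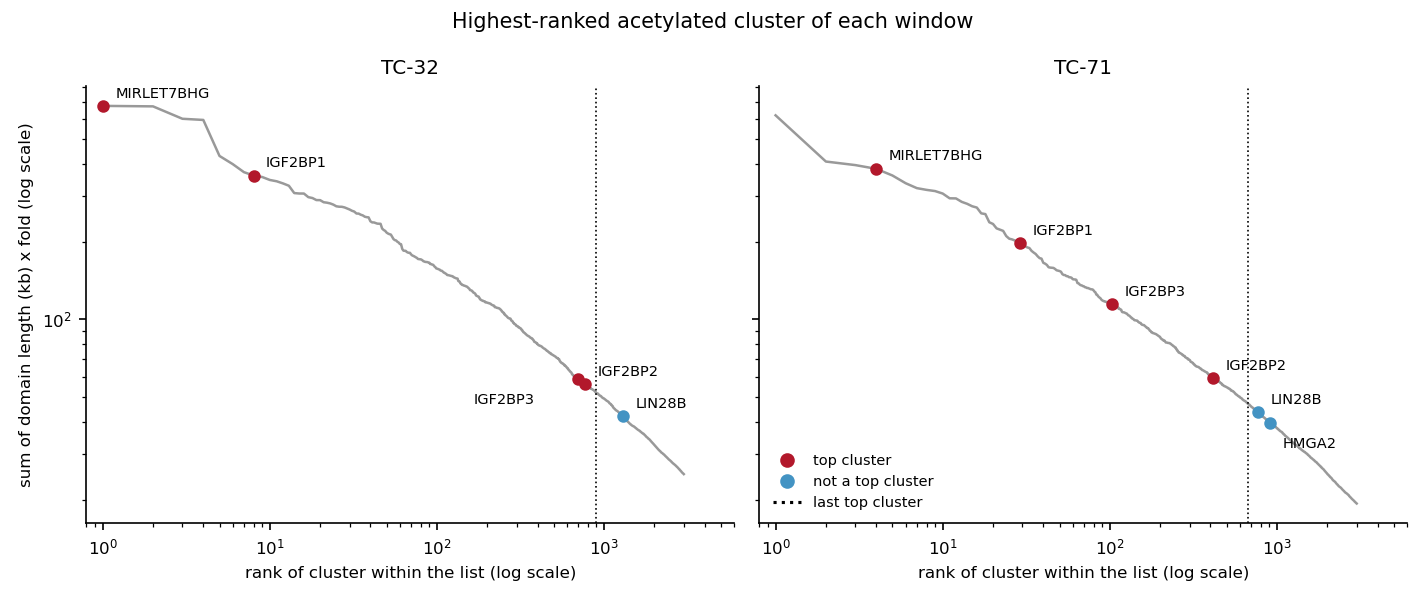
The best cluster of each window on its line's rank curve, with rank within the list across and the sum of domain length (kb) times fold upward, both on log scales and drawn for the leading part of each list. Red points are top clusters, left of the dotted line that marks the last one, and blue points (LIN28B in both lines, HMGA2 in TC-71) lie to its right.

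Read over all 6 windows, sharing by at least 1 bp was close to that of the whole lists in 3 of the 4 lists compared. Of the TC-32 domains 17 of 35 (48.6%, exact Clopper-Pearson 95% interval 31.4 to 66.0) overlapped a TC-71 domain by at least 1 bp, against 47.1% of the whole list. With at least 50% of a domain covered the TC-32 share was 28.6%, against 37.7% of the whole list, and the TC-71 share stayed at 50.8%, against 60.2%. At 1 bp, of the TC-71 domains 30 of 59 (50.8%, interval 37.5 to 64.1) overlapped a TC-32 domain, against 67.3%. The LIN28B window gave 16 of the 29 TC-71 domains without a counterpart. Of the SMC1 peaks 18 of 34 in TC-32 (52.9%, interval 35.1 to 70.2) and 18 of 20 in TC-71 (90.0%, interval 68.3 to 98.8) were shared, against 50.3% and 90.3%. The intervals cover counting error only, and domains of 1 window are not independent of each other. Since the genes were chosen with these values in view, the gap between 50.8% and 67.3% is not read as a result.

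Domains without a counterpart mostly lay low in their own list, as they do genome-wide. In TC-32, 0 of 18 reached the upper quartile of the list by −log10 q and 15 lay in its lower 50%, where 3.53% and 73.8% of all such TC-32 domains lie. In TC-71, 4 of 29 reached the upper quartile, 3 at LIN28B and 1 at HMGA2, and 22 lay in the lower 50%, against 1.51% and 86.7% of all such TC-71 domains. The genes were chosen with these values in view, so the difference from the whole list is not read as a result. Among the 6 genes, LIN28B and HMGA2 were those with an upper-quartile domain of TC-71 that no TC-32 domain overlapped.

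SMC1 peaks lay in a domain of their own line for 11 of 34 in TC-32 (32.4%, interval 17.4 to 50.5) and 7 of 20 in TC-71 (35.0%, interval 15.4 to 59.2). The shares over the whole lists were 25.9% and 13.6%. Top clusters held 16 of the 35 TC-32 domains (45.7%, interval 28.8 to 63.4) and 26 of the 59 TC-71 domains (44.1%, interval 31.2 to 57.6), against 12.6% and 13.4% of the whole lists. The windows were selected on acetylation, so nothing is read from these shares. By gene, the members in top clusters came from MIRLET7BHG (8 in each line), IGF2BP1 (4 and 11), IGF2BP2 (3 and 4) and IGF2BP3 (1 and 3), and none from LIN28B or HMGA2.

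BORIS peaks are sparse in both lists, so their distances from the windows are given as positions only. In TC-71 the nearest peak was 505 kb left of the HMGA2 window (chr12:65694738-65694823, fold 6.99), which lay at neither an SMC1 peak nor a domain of TC-71. The next was 1.32 Mb right of the IGF2BP1 window (chr17:48474884-48474982, fold 5.05), at both an SMC1 peak and a domain. Distances were 2.41 Mb for IGF2BP3, 2.44 Mb for MIRLET7BHG, 4.79 Mb for LIN28B and 17.9 Mb for IGF2BP2. In TC-32, BORIS peaks on the same chromosome were listed only for IGF2BP1 (9.59 Mb) and HMGA2 (16.4 Mb).

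The window ends set which intervals count as members, and some lay close to an end. At IGF2BP3 a shared domain crossed the right end, chr7:23529702-23530772 in TC-32 and chr7:23529630-23531709 in TC-71, and both are counted. At LIN28B a TC-71 domain, chr6:104849720-104849912 with fold 3.39 at percentile 18.0, ended 0.088 kb outside the left end, while the first inside began 17.9 kb from it. At MIRLET7BHG an SMC1 site shared by position lay 4.77 kb outside the left end in TC-32 (fold 7.97, percentile 77.0) and 4.78 kb in TC-71 (fold 8.93, percentile 77.0). The first inside, 10.8 kb from that end in both lines, had percentiles of 78.9 and 28.7. At IGF2BP2 the nearest domain to the right was 83.0 kb away in TC-32 (fold 9.82, percentile 99.6) and 82.9 kb away in TC-71 (fold 8.18, percentile 99.1). At HMGA2 the nearest TC-71 domain to the left was 63.9 kb outside (fold 6.87, percentile 89.2), and the nearest of TC-32 on either side was 77.1 kb outside.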

How the data were processed

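Per the labels, BORIS, SMC1, H3K27ac and input were each sequenced in 2 samples of TC-32 and of TC-71. MACS2 2.1.1, STAR 2.5.1b, deepTools 2.2.4, SAMtools 1.3.1 and Picard and the build hg19 are listed in the submitters' processing notes, without roles or settings. How the 2 samples of a group were combined is not given in the sources used here.

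The authors deposited narrow peaks for BORIS and SMC1 and broad domains for H3K27ac. The authors' score of an interval equals 10 times its −log10 q, cut to a whole number. The deposited fold is a ratio to input background, and the authors also give a −log10 p and a −log10 q. These values were used only within a list, since list length moves with depth and enrichment, and depth is unknown.

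Repeated summits of a narrow peak were reduced to the 1 with the highest −log10 q, and chromosomes 1 to 22 and X were used, leaving out 2 TC-32 domains, 26 TC-71 domains and 2 TC-71 SMC1 peaks. Overlap meant at least 1 bp. Coordinates are hg19, counted from 1, with bands from circlize 0.4.16 and lengths from GenomeInfoDb 1.38.1. RefSeq gene names, neighbours and microRNA sequences are of GRCh38.p14, so no gene start was placed, and other genes of the pathway were not analysed here. All 6 genes are described. In each window and line the named intervals are the widest and the highest domain, the highest SMC1 peak, the best cluster and the highest interval without a counterpart. Other intervals are named for their position. The genes and lists were chosen with earlier results of these data known. The alternatives tried were stitching at 5 kb, ranking by covered length, a minimum −log10 q of 5, 50% of an interval covered, summits within 500 bp, other window ends and lists of equal length. Tools were matplotlib 3.10.9, scipy 1.17.1, pandas 2.3.3, numpy 2.4.6 and Python 3.11.15. The overlap and stitching code was tested on simulated data, with 0 errors in 750 intervals and 0 in 300 clusters.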

Additional observations from a re-analysis of the deposited data

How the results depend on the processing

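No paired analysis was possible because the 2 samples of a group share 1 deposited list, and no test or left-out replicate could be computed. Of 81 alternative values over all windows and for cluster ranks, 70 stayed within the limits set (1.5 times for a count, the 95% interval for a share, the same side of the threshold for a rank) and 11 moved. Of 285 per gene, 249 stayed and 36 moved. Each is a value of 1 line, so it has no sign to reverse. The totals include the BORIS counts, which could not move. No filter adds a peak, and the nearest BORIS peak lay 505 kb from a window, beyond the 50 kb extension. Keeping only peaks wholly inside a window could also change few counts. The totals are therefore no measure of stability.

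At a −log10 q of at least 5 the domain counts were 16 in TC-32 and 25 in TC-71, and the IGF2BP2 cluster of TC-32 ranked 1332, outside the top clusters. With 50% of a domain covered, 28.6% of TC-32 domains were shared. With lists of equal length, SMC1 peaks numbered 17 in TC-32 against 20 in TC-71 (an alternative chosen after seeing the data). This turns the order of the counts, as at MIRLET7BHG (4 against 6) and IGF2BP2 (2 against 4). Of the 17 and 20 peaks, 76.5% and 65.0% were shared. Shares of the whole lists cut to that length were not computed, so these 2 values cannot be set against the full-list 50.3% and 90.3%. Ranked by covered length, LIN28B in TC-32 stood at 858, a top cluster, and IGF2BP3 in TC-32 at 1591, not one. With stitching at 5 kb, LIN28B (618) and HMGA2 (746) in TC-71 became top clusters. BORIS counts were 0 under each alternative, windows extended by 50 kb included. Depth is unknown, so a missing interval may lie below detection.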
